A study of Mus musculus with 54 samples.

Results

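Aminoacyl-tRNA synthetase genes were followed through 54 mouse RNA-seq libraries from a study of branched-chain amino acids in lung fibrosis. The genes were listed by symbol, with earlier results of these data known. They were 20 genes of the cytosolic enzymes and 16 genes of the mitochondrial enzymes, whose symbols end in 2. All 36 were listed in each of the 4 expression tables, and all 36 passed the filter on low values in each, among 13084 genes tested in fibroblasts and 17209, 18593 and 18151 in the lung experiments. Symbols are those of the fibroblast table, and Wars is listed as Wars1 in the lung tables.

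Each synthetase joins one kind of amino acid to its transfer RNA, the step that sets what a codon means, before the ribosome uses the charged tRNA. Most amino acids have 1 nuclear gene for the cytosolic enzyme and another for the mitochondrial enzyme. Gars and Kars each make both forms and are counted here with the cytosolic genes. Eprs charges both glutamate and proline, Farsa and Farsb are the subunits of the phenylalanine enzyme, and no separate mitochondrial glutamine enzyme exists, because an amidotransferase makes that charged tRNA. When an amino acid runs short, uncharged tRNA activates the kinase GCN2 (Eif2ak4), translation of the transcription factor ATF4 increases, and ATF4 is known to raise transcription of many cytosolic synthetase genes together with asparagine synthetase (Asns), Trib3 and Chac1. In fibroblasts turning into collagen-secreting myofibroblasts, protein synthesis is a large part of the cell's output.

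The cultures were wild-type primary mouse lung fibroblasts from mice aged 6 to 8 weeks, in 8 groups of 3 libraries. The medium for the first 24 h was complete, lacked the branched-chain amino acids leucine, isoleucine and valine (BCAA), or lacked them but had either BCAA or the branched-chain keto acids (BCKA) put back. Each medium was then followed by 48 h with PBS or with transforming growth factor β1 (TGF-β1) at 20 ng/mL. The lungs came from wild-type male C57BL/6 mice aged 10 to 12 weeks, in 3 experiments, each comparing PBS, bleomycin, and bleomycin plus a treatment. In the water experiment, with 3 mice per group, bleomycin was given into the trachea at 1.25 mg/kg, the treated mice first drank 3 mM BCAA for 7 days, and lungs were taken on day 14. In the diet experiment, with 4 mice per group, the dose was also 1.25 mg/kg, the treated mice ate a BCAA-free diet for 14 days from day 7, and lungs were taken on day 21. In the BT2 experiment, with 3 mice per group, the dose was 3.5 mg/kg and lungs were taken on day 14. There the bleomycin group received 10% DMSO, and the treated group 20 mg/kg of BT2, an inhibitor of the kinase that restrains BCKA oxidation, daily for 11 days from day 3. The PBS group of that experiment is titled as a DMSO group, while its treatment is labelled only as PBS.

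Values are TPM, transcript shares of a library corrected for gene length, so levels can be compared between genes but read depth is unknown. A fibroblast library listed 15003 to 16653 genes above 0, and a lung library 17554 to 25632. In the cultures the summed TPM of 7 fibroblast markers was 11298 to 56471, against 1.48 to 7.03 for 7 epithelial, 0.549 to 11.5 for 7 leukocyte and 0.523 to 2.08 for 3 endothelial markers. In the lungs the 7 epithelial markers summed to between 21980 and 283260 TPM, and 3 heart muscle markers to between 6.81 and 283 TPM, while the labels' protocol names heart tissue for RNA extraction. No source says that the 3 libraries of a culture group came from separate isolations, so their p-values measure a spread that may be technical. Differences are log2 of TPM + 1, given with the standard error (SE) of the limma fit, and "rose" or "fell" means a limma adjusted p under 0.05 over all genes tested.

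In resting fibroblasts in complete medium the cytosolic genes lay between 31.0 TPM (Farsb) and 158 TPM (Eprs) as group means, with a median of 81.9 TPM. The mitochondrial genes had a median of 14.5 TPM, and their range of 5.60 (Mars2) to 186 TPM (Lars2) overlapped that of the cytosolic genes through Lars2, Iars2 and Vars2. Summed over its 20 genes, the cytosolic set took 1739 to 1789 TPM per library and the mitochondrial set 448 to 499.7 TPM. Lars2, the mitochondrial leucine enzyme, made up a large part of the mitochondrial sum, which was 281 to 288 TPM without it. The mouse Lars2 gene is known to resemble in part the mitochondrial ribosomal RNA gene mt-Rnr2, so its level is uncertain. The fibroblast values list no gene with the mt- prefix of the mitochondrial genome, so mt-Rnr2 could not be read there.

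TGF-β1 in complete medium raised 9 of the 20 cytosolic genes and none fell, while none of the 16 mitochondrial genes rose and 7 fell. Of all genes tested, 48.6% changed, 12.2% upward and 36.4% downward, so the mitochondrial share is near that of all genes. Cars, the cysteine enzyme, read 46.1, 41.0 and 42.8 TPM with PBS and 83.9, 106 and 84.4 TPM with TGF-β1, a difference of 1.05 ± 0.09 (SE; limma adjusted p = 5.20e-09). Its mitochondrial counterpart Cars2 moved the other way, from 13.0, 12.1 and 12.7 TPM to 5.03, 5.99 and 5.64 TPM, a difference of -1.05 ± 0.13 (adjusted p = 1.03e-06). Neither gene's groups overlapped. Gars, the glycine enzyme, read 125, 126 and 128 TPM with PBS and 210, 260 and 206 TPM with TGF-β1, a rise of 0.82 ± 0.09. Glycine is the most frequent residue of collagen, and proline is its other hallmark residue. Eprs, the cytosolic enzyme for proline, read 0.20 ± 0.10 (limma adjusted p = 0.0939). Pars2, the mitochondrial proline enzyme, fell (-0.38 ± 0.12). Mars1, Aars, Sars, Yars, Farsb, Nars and Tars also rose, by 0.66 down to 0.33. The genes for the branched-chain amino acids read 0.06 ± 0.08 for Lars, 0.26 ± 0.12 for Iars and 0.13 ± 0.14 for Vars, and none of these passed.

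The medians were 0.23 for the cytosolic genes, -0.20 for the mitochondrial genes and -0.20 for all genes tested. Centring each library on its median ratio shifted the all-gene median by 0.19 and the calls over all genes from 1590 higher and 4767 lower to 2789 higher and 3010 lower. After centring, 14 cytosolic genes rose and none fell, and of the mitochondrial genes only Cars2 fell. Ears2, Sars2, Wars2, Pars2, Iars2 and Vars2 did not pass after centring. Vars2 also lost its call with any of the 6 libraries left out. Without TGF-β1 replicate 2 or replicate 3 the mitochondrial falls numbered 3 and 4. Marker genes moved in the same comparison. The fibroblast markers summed to 14074 to 15084 TPM with PBS and 38813 to 43395 TPM with TGF-β1, where Col1a1 and Col1a2 rose and Pdgfra, Dcn and Lum fell. The 3 mesothelial markers fell, from 57.4 to 65.5 TPM in sum to 31.2 to 33.4 TPM. Both tested epithelial markers (Krt8 and Ager) and the tested heart marker Tnnt2 fell, and of the leukocyte markers Cd68 rose and Lyz2 fell. The part of these markers in the synthetase levels was not tested.

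Removing BCAA from resting fibroblasts moved no synthetase gene past the threshold in the limma fit, where 0.910% of all genes did. Differences ran from -0.11 (Cars) to 0.22 (Farsb) for the cytosolic genes and from -0.28 (Sars2) to 0.20 (Ears2) for the mitochondrial genes, with none of the 36 at an unadjusted p under 0.05. The 95% intervals of the cytosolic differences lay between -0.55 and 0.52. Lars read 84.1, 86.2 and 90.0 TPM in complete medium and 91.6, 88.0 and 87.4 TPM in free medium, Iars 83.8, 86.5 and 80.6 against 79.4, 83.1 and 94.2 TPM, and Vars 110, 112 and 117 against 126, 125 and 109 TPM. The libraries of these groups overlapped for each of the 3 genes. The cytosolic sum was 1795 to 1815 TPM per library without BCAA.

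Under TGF-β1 the same removal raised 19 of the 20 cytosolic genes and 11 of the 16 mitochondrial genes, and none fell. Of all genes tested 60.3% changed, 35.5% upward and 24.8% downward. The median difference was 1.41 for the cytosolic genes, 0.59 for the mitochondrial genes and 0.10 for all genes, and after centring, which moved the latter by -0.11, 19 cytosolic and 9 mitochondrial genes still rose and none fell. Summed over the 20 genes, the cytosolic set took 2133 to 2478 TPM per library in complete medium and 6429 to 6943 TPM in free medium.

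**Figure D1:**
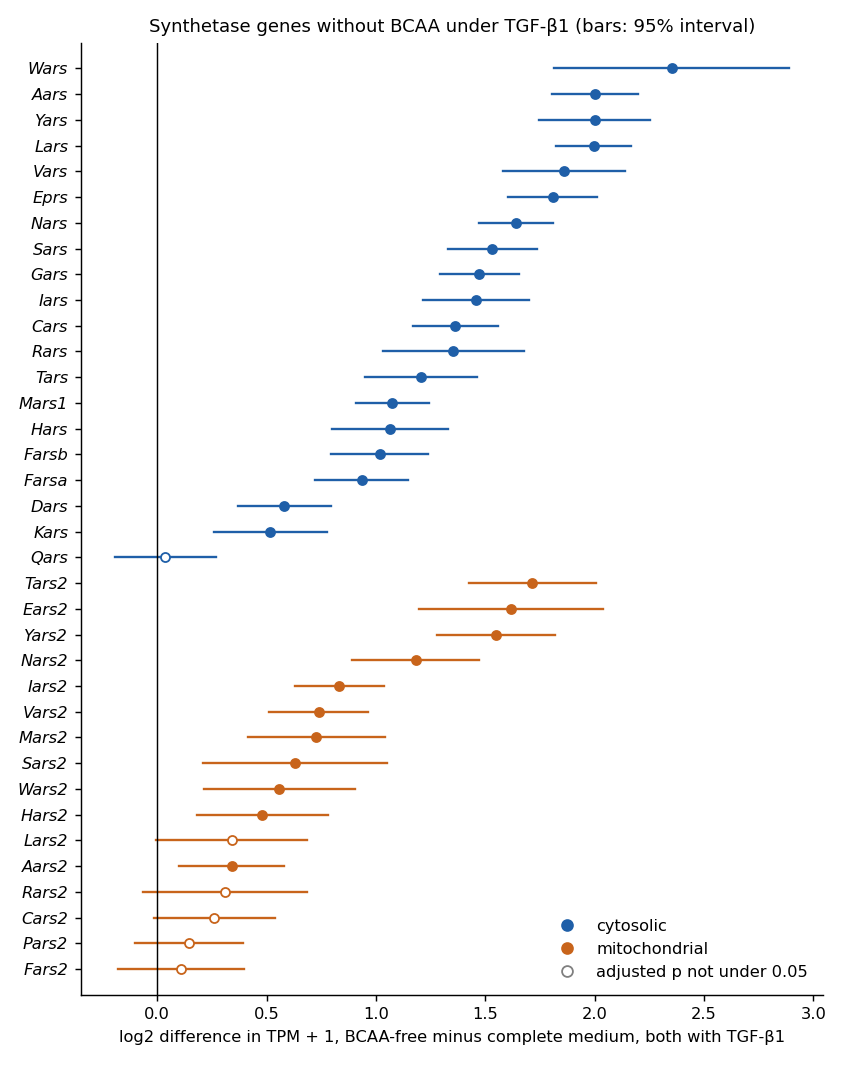
Difference of each synthetase gene between BCAA-free and complete medium, both with TGF-β1, on the log2(TPM + 1) scale (horizontal axis), by gene (rows); points are limma estimates, bars their 95% intervals, filled points passed an adjusted p of 0.05. Every cytosolic gene except Qars lies to the right of 0 with its interval, and the mitochondrial genes spread from 0.11 (Fars2) to 1.72 (Tars2).

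The genes for leucine, isoleucine and valine were among those that rose. Lars read 89.2, 101 and 82.8 TPM in complete medium with TGF-β1 and 363, 355 and 376 TPM in free medium, a difference of 1.99 ± 0.08 (limma adjusted p = 7.34e-15). Iars, the isoleucine enzyme, rose from 113, 83.7 and 107 TPM to 226, 302 and 312 TPM, by 1.46 ± 0.12 (adjusted p = 5.48e-10). Vars, the valine enzyme, rose from 120, 132 and 119 TPM to 602, 345 and 444 TPM, by 1.86 ± 0.14 (adjusted p = 1.13e-10). The groups of these genes did not overlap, and the spread within the free group was widest for Vars. They did not head the list, since Wars, Aars and Yars, for tryptophan, alanine and tyrosine, had estimates above that of Lars.

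Aars read 197, 223 and 192 TPM in complete medium and 905, 710 and 856 TPM in free medium, the highest level of any synthetase gene in the cultures (2.00 ± 0.09; adjusted p = 6.78e-14). Yars rose from 86.1, 106 and 83.5 TPM to 473, 291 and 362 TPM, by 2.00 ± 0.12. Wars read 44.7, 46.8 and 43.9 TPM in complete medium and 107, 364 and 330 TPM in free medium. All 3 free libraries of Wars lay above the complete ones, but replicate 1 lay far below the other pair, and the difference of 2.35 ± 0.26 became 2.91 without that library. Eprs rose from 194, 174 and 180 TPM to 559, 662 and 710 TPM (1.81 ± 0.10), and Nars, Sars, Gars, Cars, Rars, Tars, Mars1, Hars, Farsb and Farsa rose by 1.64 down to 0.93.

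The smallest responses were those of Dars, Kars and Qars, for aspartate, lysine and glutamine, which share the cytosolic multisynthetase complex with Eprs, Iars, Lars, Mars1 and Rars. Dars rose by 0.58 ± 0.10 and Kars by 0.52 ± 0.12. Qars read 98.9, 103 and 99.1 TPM in complete medium and 78.3, 119 and 116 TPM in free medium, overlapping groups with a difference of 0.04 ± 0.11 (adjusted p = 0.799). Membership of the complex, looked at after the values were seen, thus took in Lars at 1.99 and Qars at 0.04, with Eprs, Iars, Rars and Mars1 between.

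Replicate 1 of the BCAA-free group with TGF-β1 stood apart from its fellows in several members. It was the lowest of the 3 for Wars, Rars (114 against 213 and 203 TPM), Tars (138 against 219 and 221 TPM) and Qars, and the highest for Vars, Yars and Tars2. The same group had the widest range of summed fibroblast markers, 11616 to 56471 TPM. Without replicate 1, all 20 cytosolic genes rose, Qars included, and 10 mitochondrial genes rose.

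**Figure D2:**
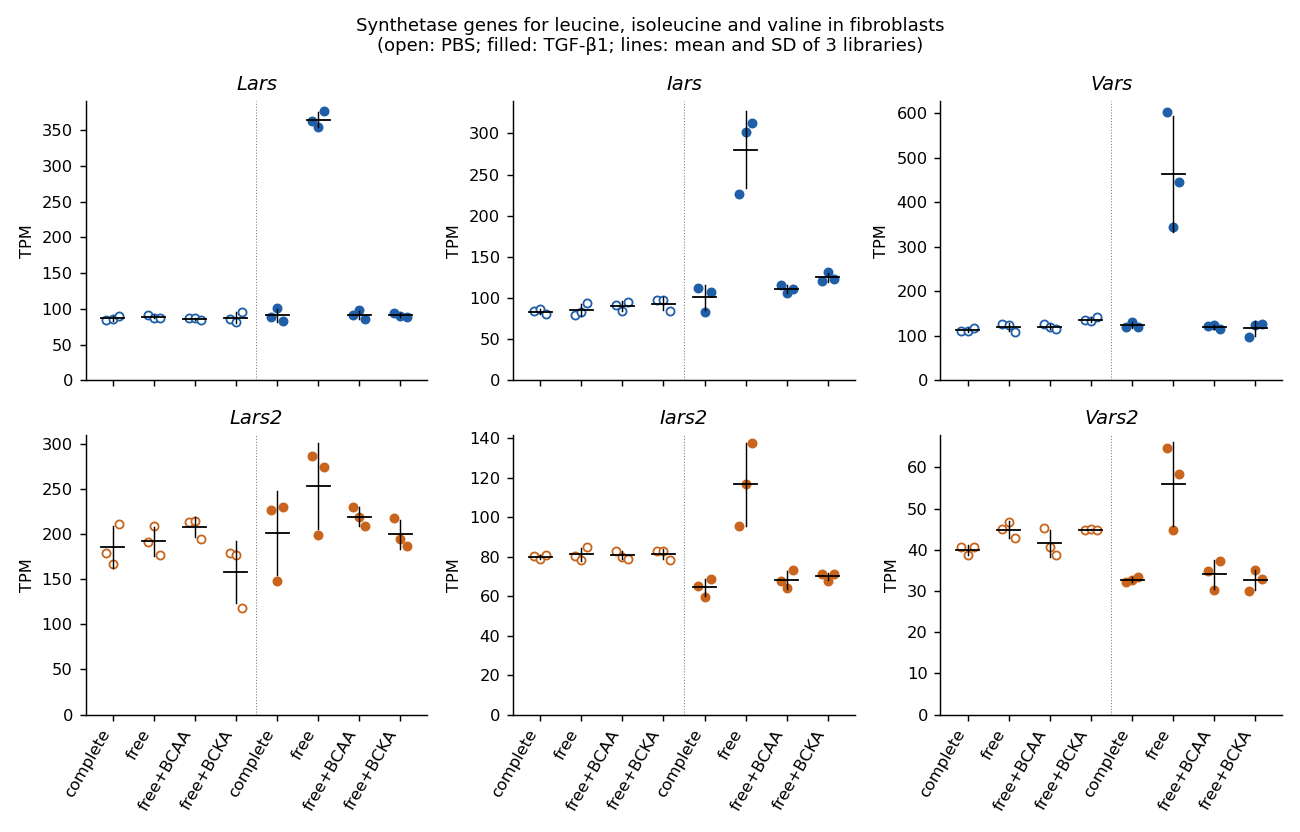
TPM (vertical axis, starting at 0) of the cytosolic and mitochondrial enzymes for leucine, isoleucine and valine in each fibroblast library, by medium (horizontal axis); open circles had PBS and filled circles TGF-β1, and lines mark mean and SD of 3 libraries. For Lars, Iars and Vars the 3 libraries without BCAA under TGF-β1 lie above all others (226 to 602 TPM), while Lars2 overlaps between media.

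Among the mitochondrial genes the largest rises under BCAA removal with TGF-β1 were those of Tars2, Ears2, Yars2 and Nars2, for threonine, glutamate, tyrosine and asparagine. Tars2 read 19.4, 20.9 and 17.1 TPM in complete medium and 86.3, 50.8 and 62.5 TPM in free medium, a difference of 1.72 ± 0.14 (limma adjusted p = 7.01e-10). Ears2 rose from 2.93, 5.20 and 2.87 TPM to 15.8, 12.2 and 11.3 TPM, by 1.62 ± 0.20. Yars2 rose from 10.1, 10.7 and 8.06 TPM to 36.6, 25.9 and 28.1 TPM, by 1.55 ± 0.13. For each of these genes the lowest free library lay above the highest complete library. Of the branched-chain enzymes Iars2 rose by 0.83 ± 0.10 and Vars2 by 0.74 ± 0.11. Lars2 read 227, 148 and 230 TPM against 287, 199 and 274 TPM, overlapping groups with a difference of 0.34 ± 0.17 (adjusted p = 0.0845), which passed only without complete replicate 3 (adjusted p = 0.0428) or free replicate 2 (adjusted p = 0.0141). Cars2, Fars2, Pars2 and Rars2 did not pass either, with differences of 0.11 to 0.31.

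Set side by side by amino acid, 17 pairs of a cytosolic and a mitochondrial gene covered 16 amino acids. With signs kept, the cytosolic difference was the higher in 16 of the 17 pairs for BCAA removal under TGF-β1, the exception being Tars (1.21) and Tars2 (1.72), and in 16 of 17 for TGF-β1 in complete medium, where Lars (0.06) and Lars2 (0.10) were the exception. The median gap was 0.90 and 0.55 log2. In size, signs aside, the cytosolic gene moved more in 16 pairs for BCAA removal and in 8 for TGF-β1 in complete medium. Pairs share libraries, Eprs and Fars2 stand in 2 pairs each, and the gap carries no test.

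**Figure D3:**
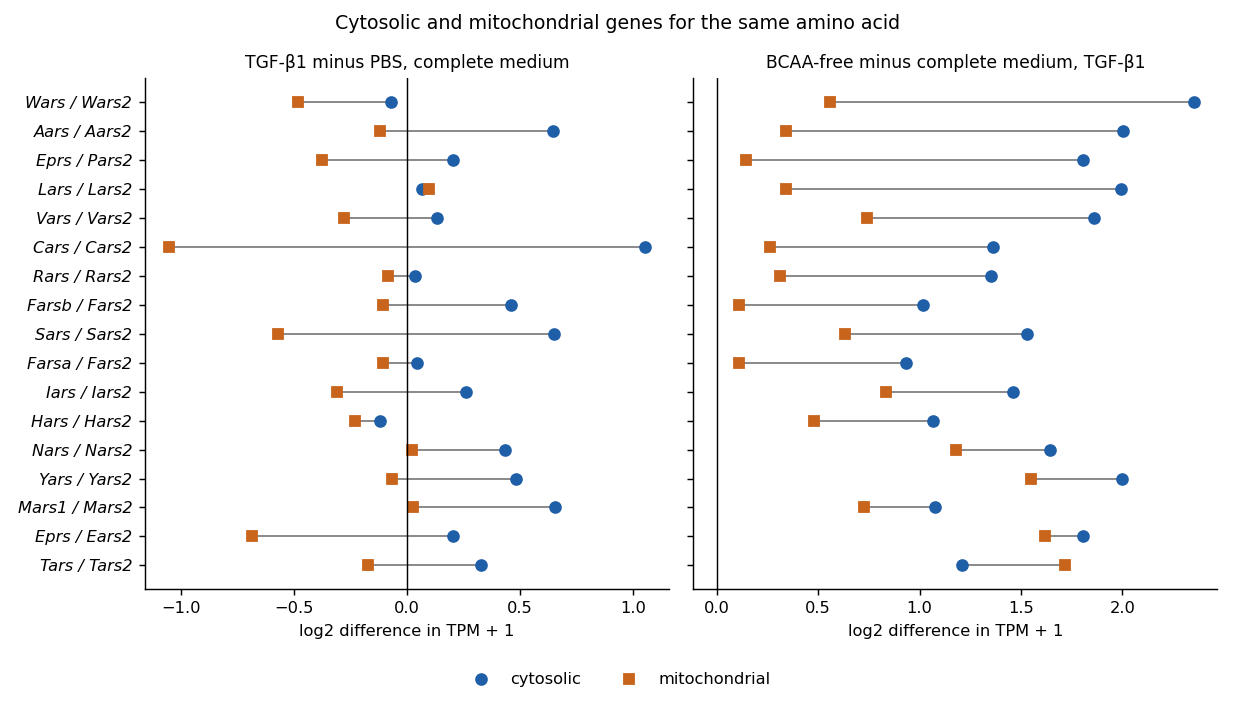
Log2 difference in TPM + 1 (horizontal axes) of the cytosolic gene (circle) and the mitochondrial gene (square) for each amino acid (rows, ordered by the gap in the right panel), for TGF-β1 against PBS in complete medium (left) and BCAA-free against complete medium with TGF-β1 (right). In the right panel 16 of 17 circles lie to the right of their square; in the left panel several circles lie above 0 and their squares below it, as for Cars (1.05) and Cars2 (-1.05).

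Because cytosolic members moved together, the sequence before and around their starts is shown for a known element of the shortage response. The core bound by ATF4 with C/EBP partners is written TGATGNAA, where N is any base, and was searched on both strands from 250 bases before to 50 after the start in RefSeq promoters (GRCm38.p6). Of the 36 genes, 13 cytosolic and 14 mitochondrial genes were in that table. The cytosolic genes missing from it were Cars, Hars, Lars, Nars, Rars, Vars and Wars. The core was found in a promoter of 5 of the 13 cytosolic genes (Aars, Gars, Iars, Tars and Yars) and of 0 of the 14 mitochondrial ones. Among all 27025 genes with promoters of the same length, 4.51% had it. In the 250 bases before the start alone it was in 3 of 13 (Aars, Gars and Tars) and in 3.91% of all. The longer TGATGCAAT, which overlaps the core, was in Aars and Iars and in 0.222% of all genes. The stretches below show each match, on the gene's strand, with the core in capitals (TGATGNAA, or its reverse complement). They run at chr8:111033720-111033841 and chr8:111033840-111033869 for Aars, chr6:55037941-55038000 for Gars, chr13:49682126-49682155 for Iars and chr4:129189895-129189924 for Yars (plus strand in the table), and chr15:11399659-11399718 for Tars (minus strand).
Aars upstream: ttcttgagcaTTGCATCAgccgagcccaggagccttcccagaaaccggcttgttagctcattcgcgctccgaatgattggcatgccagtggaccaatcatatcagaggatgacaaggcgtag
Aars start: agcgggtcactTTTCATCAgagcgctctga
Gars: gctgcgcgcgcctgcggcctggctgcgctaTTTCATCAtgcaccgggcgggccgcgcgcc
Iars: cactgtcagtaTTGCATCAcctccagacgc
Tars: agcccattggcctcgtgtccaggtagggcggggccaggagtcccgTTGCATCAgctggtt
Yars: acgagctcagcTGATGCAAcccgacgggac

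The matches are letters and not measured binding, and the same window of Eprs, Farsa, Mars1, Sars and the other genes in the table held none. The first bases after the start were not found in a transcript listed under the gene's name for Dars, Farsa, Kars, Mars1, Qars, Sars and the matched Gars. The same held for Ears2, Fars2, Iars2, Sars2 and Tars2. For these genes the place of the window is less certain. Genes with a match rose by 1.21 (Tars) to 2.00 (Aars) under BCAA removal with TGF-β1. Of the cytosolic genes in the table without a match, Eprs (1.81) and Sars (1.53) lay within that range. Mars1 (1.07), Farsb (1.02), Farsa (0.93), Dars, Kars and Qars (0.04) lay below it. The part of the core in these differences was not tested.

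Genes around the synthetases moved in the same comparison. Among other genes of the charging machinery, the complex scaffolds Aimp1 (1.23 ± 0.14), Aimp2 (0.75 ± 0.13) and Eef1e1 (1.04 ± 0.18), the amidotransferase subunits Qrsl1 and Gatb, and Dtd1 rose, and Pstk fell (-0.46 ± 0.19). Of 8 mitochondrial translation factors 7 rose, and all 5 cytosolic elongation factors did, with medians of 0.50 and 0.47. Of 12 genes of the shortage response 9 rose and none fell, with a median of 1.16. Ddit3 read 14.1, 23.3 and 13.0 TPM in complete medium and 110, 240 and 209 TPM in free medium (3.37 ± 0.22), and Trib3, an inhibitor of ATF4, rose from 17.9, 25.3 and 16.6 TPM to 338, 181 and 202 TPM. Asns, which makes asparagine, rose by 1.12 ± 0.15 and Atf4 by 1.20 ± 0.18. In complete medium TGF-β1 had raised 5 of these 12 (Atf4, Trib3, Asns, Chac1 and Nupr1). Removing BCAA from resting cells moved 0 of the 12.

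Wars is also known as an interferon-induced gene, and interferon genes were read beside it. Irf1, Gbp2, Ifit1 and Cxcl10 fell under BCAA removal with TGF-β1, while Wars rose. Among markers of other cell types, 2 of 2 tested leukocyte genes (Cd68 and Lyz2) and 3 of 3 mesothelial genes fell. Of the 7 fibroblast markers 5 fell (Col1a1, Pdgfra, Thy1, Dcn and Lum) and none rose, with a median of -0.77. Their sums were 11616, 15416 and 56471 TPM without BCAA, against 38813 to 43395 TPM in complete medium. The highest free library thus lay above every complete one, and the fall was not seen in every library. The summed levels of the leukocyte and mesothelial markers were 0.549 to 2.45 and 11.3 to 14.2 TPM without BCAA, against 7.35 to 9.94 and 31.2 to 33.4 TPM in complete medium, and the part of these markers in the synthetase levels was not tested.

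Seen from the side of the cytokine, TGF-β1 in BCAA-free medium raised 19 cytosolic genes and 8 mitochondrial genes, and Cars2 (-0.69 ± 0.13) and Pars2 (-0.35 ± 0.12) fell. In this comparison 64.1% of all genes changed, 29.2% upward and 34.9% downward. The largest rise was that of Aars, from 115, 131 and 128 TPM to 905, 710 and 856 TPM (2.71 ± 0.09), followed by Cars (2.53 ± 0.09), Yars (2.45 ± 0.12) and Wars (2.30 ± 0.26). The response to TGF-β1 itself differed between the media, by an interaction term in limma, for 18 cytosolic and 9 mitochondrial genes, all with the higher value in free medium. Of the mitochondrial genes Ears2, Iars2 and Vars2 fell in complete and rose in free medium, and Sars2 fell in complete medium (-0.57) and read 0.33 in free medium, where it did not pass. The interaction passed for 47.6% of all genes and was positive in 29.2% and negative in 18.4%. Centring kept 18 cytosolic and left 7 mitochondrial calls, and changed the split over all genes from 3820 higher and 2405 lower to 3069 and 3058. Qars (-0.07 ± 0.16) and Kars (0.41 ± 0.18; adjusted p = 0.0591) were the cytosolic genes that did not pass.

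Putting BCAA back into the free medium under TGF-β1 lowered 19 cytosolic and 11 mitochondrial genes relative to free medium, and putting back BCKA lowered 19 and 12. These comparisons share the free group with the removal itself, so the fall restates that group's levels. Over all genes 58.3% and 58.4% changed, 25.0% and 25.1% upward and 33.3% and 33.4% downward. Lars read 90.9, 98.0 and 85.9 TPM with BCAA and 94.3, 90.9 and 88.5 TPM with BCKA, against 355 to 376 TPM without either. Aars read 211, 214 and 197 TPM with BCAA and 198, 229 and 192 TPM with BCKA. These levels were all below those of the free group, and for both genes the libraries with BCAA overlapped those with BCKA.

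Set against complete medium with TGF-β1, neither return left a synthetase gene past the limma threshold, where 0.0153% of all genes passed for BCAA and 0.611% for BCKA. With BCAA the cytosolic differences ran from -0.08 (Yars) to 0.15 (Iars) and the mitochondrial ones from -0.28 (Yars2) to 0.15 (Tars2), with 1 gene of 36, Yars2, at an unadjusted p under 0.05. With BCKA they ran from -0.10 (Farsb) to 0.32 (Iars) and from -0.18 (Fars2) to 0.26 (Nars2), with 1 gene, Iars, at an unadjusted p under 0.05. The 95% intervals of the 36 differences lay between -0.61 and 0.62 for BCAA and between -0.56 and 0.56 for BCKA. These are the outermost bounds over all genes, and most intervals were narrower. Differences inside a gene's own interval were not excluded. Between BCKA and BCAA under TGF-β1 0 of 36 passed, beside 0.268% of all genes, with none at an unadjusted p under 0.05 and 95% intervals between -0.62 and 0.68. In resting cells the returns also moved none of the 36, beside 0.260% of all genes for BCAA and 0.665% for BCKA, with 2 genes of 36 at an unadjusted p under 0.05 in each.

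**Figure D4:**
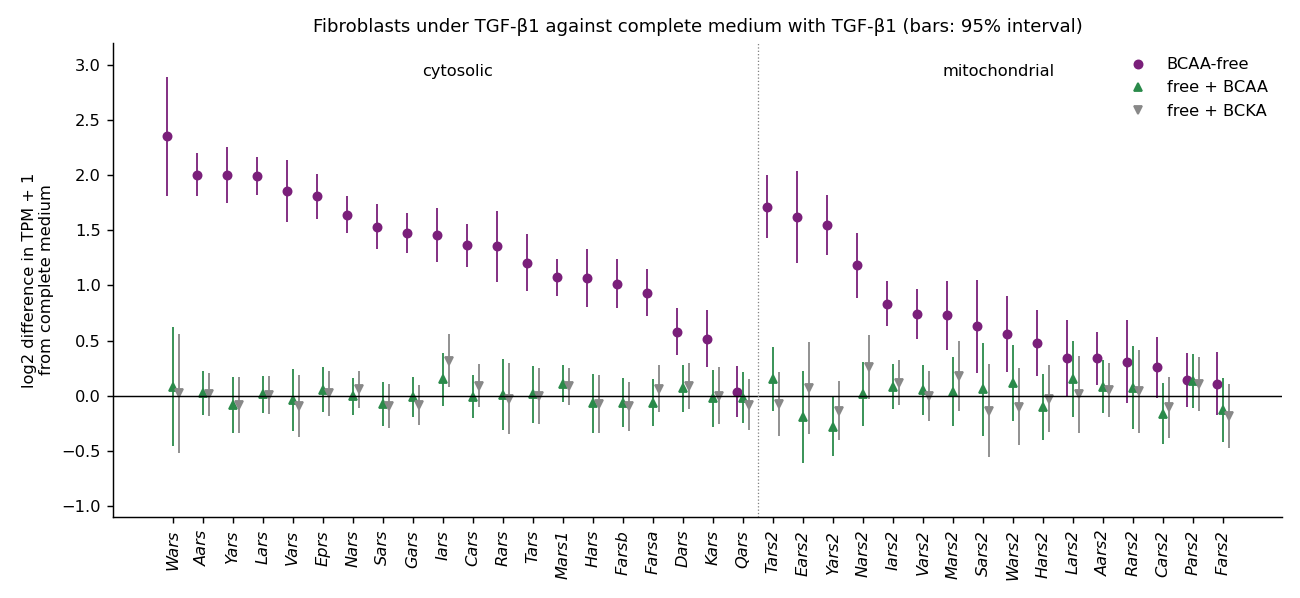
Log2 difference in TPM + 1 (vertical axis) from complete medium, all with TGF-β1, for BCAA-free medium (circles), free medium with BCAA (upward triangles) and free medium with BCKA (downward triangles), by gene (horizontal axis); bars are 95% intervals of the limma fit. The triangles lie between -0.28 and 0.32 for every gene, and circles reach 2.35 (Wars).

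In PBS lungs the order of levels within the cytosolic set differed from that of the cultures, though the tables were normalised separately. Eprs, the highest gene of resting fibroblasts, was the lowest in the PBS lungs of the diet experiment (16.1 TPM) and the BT2 experiment (23.6 TPM). Nars, for asparagine, was the highest in the water experiment (174 TPM) and the BT2 experiment (183 TPM), and Wars in the diet experiment (128 TPM). The mitochondrial genes had medians of 7.01, 7.78 and 9.60 TPM in the water, diet and BT2 experiments.

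In lungs of the water experiment, on day 14 after bleomycin, 8 of the 20 cytosolic genes fell and 1 rose, and 0 of the 16 mitochondrial genes passed. Of all genes 21.9% changed, 14.8% upward and 7.08% downward. In whole tissue, fewer cells of a type and less RNA per cell cannot be told apart. Cars read 31.6, 42.1 and 34.7 TPM with PBS and 16.2, 13.4 and 14.8 TPM with bleomycin, a difference of -1.23 ± 0.17 (limma adjusted p = 0.000795). Yars went from 37.2, 37.7 and 36.8 TPM to 19.6, 17.5 and 21.7 TPM (-0.90 ± 0.15), and Tars from 48.0, 57.7 and 56.8 TPM to 33.7, 24.0 and 30.8 TPM (-0.86 ± 0.15). Groups did not overlap for these genes. Nars (-0.81), Aars (-0.76), Eprs (-0.71), Gars (-0.65) and Sars (-0.60) fell too, while Kars rose by 0.53 ± 0.15. The rise of Kars was lost without PBS replicate 1 or 3 or bleomycin replicate 1 or 3, with adjusted p-values of 0.0576 to 0.0826.

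Lars (0.04 ± 0.12), Iars (-0.26 ± 0.21) and Vars (-0.08 ± 0.15) did not pass. The medians were -0.18 for the cytosolic genes, 0.02 for the mitochondrial genes and 0.09 for all genes. In 14 of the 17 amino acid pairs the cytosolic value was the lower of the pair, and in size, signs aside, the cytosolic gene moved more in 10 of the 17. Centring changed the split over all genes from 2555 higher and 1218 lower to 2462 and 2116, with 1 cytosolic rise and 8 falls as before. Of the 8 genes that fell, 7 were among the 9 that TGF-β1 raised in cultured fibroblasts (77.8% of that list and 87.5% of this one): Aars, Cars, Gars, Nars, Sars, Tars and Yars. These lists share no library. Of all genes tested, 12.2% rose with TGF-β1 in the cultures and 7.08% fell in these lungs, and the overlap over all genes was not counted.

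Of the 12 shortage response genes 10 fell in the same lungs, with a median of -0.998. Chac1 read 57.4, 81.0 and 66.2 TPM with PBS and 6.35, 3.55 and 4.70 TPM with bleomycin (-3.57 ± 0.20), and Asns read 88.2, 107 and 110 TPM against 37.4, 29.4 and 34.0 TPM (-1.57 ± 0.17). Of 7 epithelial markers the club cell gene Scgb1a1 fell, Ager rose and the others did not pass. The 7 summed to 82046 to 155635 TPM with bleomycin against 172500 to 283260 TPM with PBS. Scgb1a1 alone read 21954 to 243727 TPM across the libraries of this experiment. Of 7 fibroblast markers 5 rose and of 7 leukocyte markers 3 rose. The 3 heart muscle markers fell, from 14.5 to 39.9 TPM in sum with PBS to 6.81 to 13.4 TPM. The part of these cell types in the synthetase levels was not tested.

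In the BT2 experiment, with 3.5 mg/kg of bleomycin and also on day 14, 6 cytosolic genes fell and 2 rose, and 1 mitochondrial gene rose and 1 fell. Of all genes 30.6% changed, 17.3% upward and 13.3% downward. Cars read 47.0, 40.6 and 37.1 TPM with PBS and 21.1, 24.1 and 18.7 TPM with bleomycin (-0.93 ± 0.20; limma adjusted p = 0.00722). Yars (-0.75), Nars (-0.74), Tars (-0.69), Eprs (-0.56) and Sars (-0.47) also fell, and these 6 genes are all among the 8 that fell in the water experiment (100% of this list and 75% of that one). How many of all genes fell in both experiments was not counted. Kars (0.51) and Qars (0.42) rose. Gars, which fell in the water experiment, read 149, 142 and 143 TPM against 143, 146 and 125 TPM here (-0.07 ± 0.13). Aars read -0.47 ± 0.19 (adjusted p = 0.0796).

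Iars2 rose from 12.6, 13.5 and 13.2 TPM to 21.8, 24.4 and 21.9 TPM (0.75 ± 0.15) and Vars2 fell from 17.8, 16.4 and 16.9 TPM to 7.00, 11.9 and 11.0 TPM (-0.74 ± 0.21). Leaving out single libraries moved the cytosolic calls between 2 (without PBS replicate 1) and 11, with 3 without PBS replicate 3 and 4 without PBS replicate 2 or bleomycin replicate 3. The mitochondrial calls moved between 1 (without any PBS replicate) and 5 (without bleomycin replicate 2). Of the 12 shortage response genes 7 fell, with a median of -0.85. Of the epithelial markers 5 of 7 fell, and the sum of the 7 was 21980 to 31305 TPM against 159073 to 190889 TPM. Scgb1a1 alone read 11181 to 146086 TPM across the libraries of this experiment. Of the fibroblast markers 6 of 7 rose, and the 3 heart muscle markers fell, from 107 to 277 TPM in sum with PBS to 19.3 to 33.2 TPM. The part of these changes in the synthetase results was not tested.

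**Figure D5:**
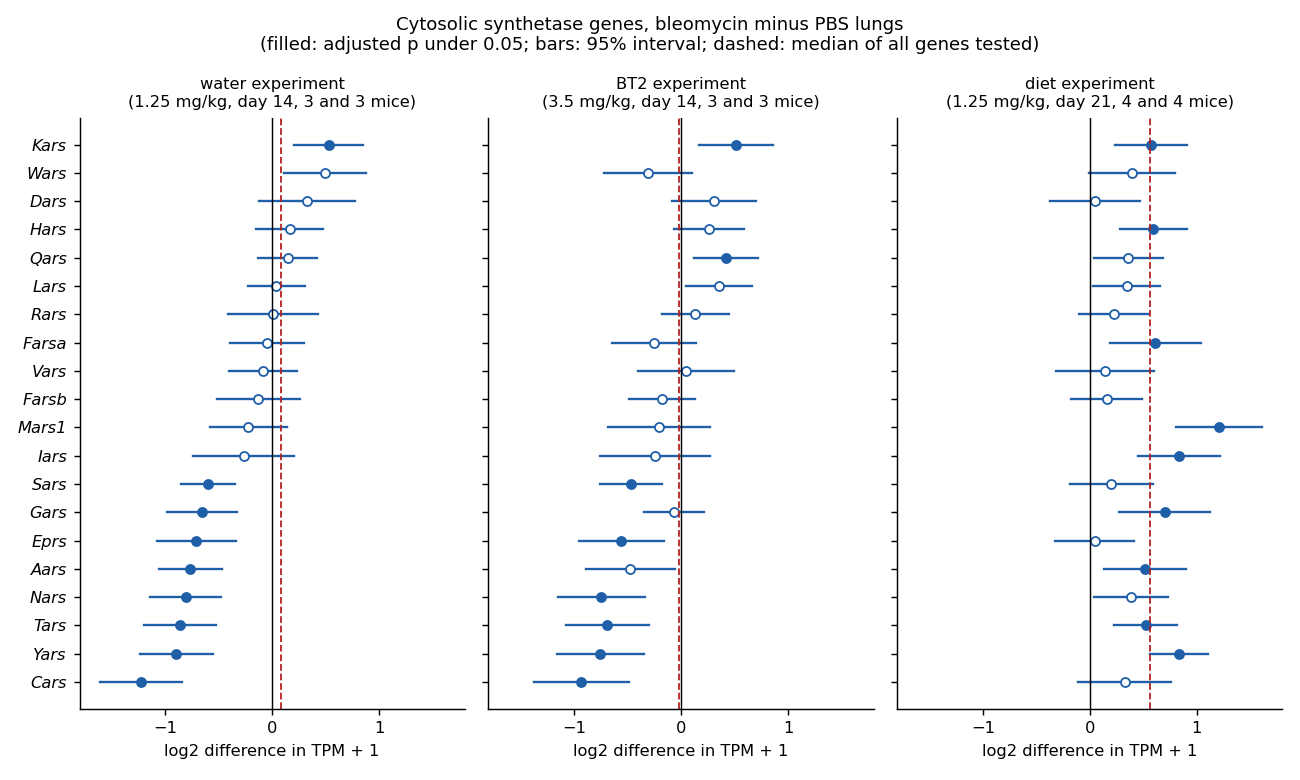
Log2 difference in TPM + 1 between bleomycin and PBS lungs (horizontal axes) for the 20 cytosolic genes (rows, ordered by the water experiment), in the water, BT2 and diet experiments; filled points passed an adjusted p of 0.05, bars are 95% intervals and the dashed line is the median of all genes tested. Cars, Yars, Tars and Nars are filled and to the left of 0 in the water and BT2 panels, and every estimate of the diet panel is above 0, most of them left of that panel's median of 0.56.

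In the diet experiment, on day 21, the estimates of all 20 cytosolic genes were above 0, and 9 rose and none fell. All genes had a median of 0.56, however, 60.9% changed, 48.7% rose and 12.3% fell, so the cytosolic count is near that of all genes. Mars1, for methionine, went from 22.0, 20.8, 27.3 and 12.9 TPM with PBS to 45.1, 41.6, 51.2 and 53.9 TPM with bleomycin (1.21 ± 0.19; limma adjusted p = 0.000113). Yars went from 18.2, 16.6, 18.2 and 13.3 TPM to 30.5, 31.4, 29.5 and 29.6 TPM (0.84 ± 0.13; adjusted p = 9.26e-05). Neither gene's groups overlapped. Iars, Gars, Farsa, Hars, Kars, Aars and Tars rose by 0.83 down to 0.52, and of the mitochondrial genes Hars2, Mars2, Nars2 and Pars2 rose, by 0.75 down to 0.52. The other mitochondrial gene that passed, Lars2, fell. Without PBS replicate 2 the mitochondrial calls numbered 3, all rises.

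Centring shifted the all-gene median by -0.56 and the split over all genes from 9047 higher and 2281 lower to 4515 and 4696. Relative to that median Mars1 and Yars rose, 6 cytosolic genes fell (Dars, Eprs, Farsb, Rars, Sars and Vars) and 6 mitochondrial genes fell. The PBS lungs of this experiment stood apart in composition. Mitochondrial transcripts made up 12.2 to 17.3% of their TPM against 4.41 to 5.29% with bleomycin, and the 3 endothelial markers summed to 68.0 to 90.0 TPM against 535 to 779 TPM. The leukocyte markers summed to 1209 to 1823 TPM against 7789 to 11169 TPM, and all 7 rose. Of the fibroblast markers 6 of 7 rose, from 202 to 302 TPM in sum to 2110 to 2853 TPM. Of the epithelial markers 4 fell and 2 rose, with sums of 118365 to 279239 TPM against 43960 to 53504 TPM. Scgb1a1 alone read 23843 to 273444 TPM across the libraries of this experiment. The 3 heart muscle markers fell, from 90.1 to 283 TPM to 9.29 to 18.4 TPM. In the PBS lungs of the water and BT2 experiments the endothelial markers summed to 514 to 706 and 560 to 813 TPM. The leukocyte markers summed to 8077 to 11294 and 8372 to 9917 TPM there, nearer to the diet experiment's bleomycin lungs than to its PBS lungs. The part of these differences in the synthetase levels of the diet experiment was not tested. Of the 12 shortage response genes 4 rose (Sesn2, Ppp1r15a, Eif2ak4 and Eif2ak3) and Asns fell, with a median of 0.62 beside 0.56 for all genes.

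Lars2 was the mitochondrial gene that fell in the diet experiment, where 10 of the 16 estimates were above 0 and 6 below. It read 176, 222, 63.6 and 189 TPM with PBS and 53.4, 97.2, 51.2 and 87.5 TPM with bleomycin, overlapping groups with a difference of -1.07 ± 0.36 (limma adjusted p = 0.0195). This call was lost without PBS replicate 1, 2 or 4 or bleomycin replicate 1 or 3, with adjusted p-values of 0.0515 to 0.0631. The mitochondrial ribosomal RNA mt-Rnr2 read 1739 to 2497 TPM in the PBS lungs and 695 to 841 TPM in the bleomycin lungs, and its part in the Lars2 values was not tested. Across the experiments Lars2 had group means of 158 to 253 TPM in cultures, 72.3 to 163 TPM in the diet lungs, and no more than 39.0 TPM in the BT2 lungs. The tables were normalised separately, and only the lung values hold genes with the mt- prefix. In the water experiment its single libraries read 4.86 to 10.6 TPM.

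Wars was read beside interferon genes in the lungs too. In the water experiment it read 94.2, 110 and 106 TPM with PBS and 159, 117 and 166 TPM with bleomycin, groups that did not overlap, with a difference of 0.49 ± 0.17 that missed the threshold (limma adjusted p = 0.0645), while Isg15, Ifit1 and Cxcl9 rose. In the diet experiment these 3 genes and Irf1, Gbp2 and Cxcl10 rose, and Wars read 0.39 ± 0.19 (adjusted p = 0.0827). In the BT2 experiment Cxcl10 rose and Irf1 fell, and Wars read -0.31 ± 0.18 (adjusted p = 0.225).

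The bleomycin effects of the 3 experiments came from separate tables and differ in dose and day, and their difference was not tested. The PBS lungs of the diet experiment also differed from those of the other experiments in endothelial and leukocyte marker sums. Yars fell in the water and BT2 experiments and rose in the diet experiment, there also after centring. Of the 8 genes that fell in the water experiment, 4 (Aars, Gars, Tars and Yars) rose in the diet experiment, where 48.7% of all genes rose. These 4 are 50% of the first list and 44.4% of the second. After centring on the median of all genes, only Yars of these 4 still rose there.

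The treatments given with bleomycin moved 3 of the 36 genes past the limma threshold with BT2 and none with BCAA in water or the BCAA-free diet. With BCAA in the drinking water 0 of 36 genes passed, beside 1.20% of all genes, and 4 of 36 (Gars, Qars, Sars and Vars) had an unadjusted p under 0.05. The cytosolic differences ran from -0.29 (Wars) to 0.37 (Vars). Sars read 71.4, 74.3 and 69.1 TPM with bleomycin alone and 86.1, 87.5 and 88.7 TPM with BCAA, groups that did not overlap, with a difference of 0.29 ± 0.11 (adjusted p = 0.240). Of the 7 fibroblast markers Col1a1, Col1a2 and Thy1 rose and none fell, and no marker of the other cell types passed. The part of these markers in the synthetase levels was not tested.

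With the BCAA-free diet 0 of 36 passed, beside 10.1% of all genes, and 3 genes (Hars, Qars and Rars) had an unadjusted p under 0.05. Lars read 33.1, 32.2, 32.6 and 32.2 TPM on normal diet and 30.3, 31.3, 37.5 and 30.0 TPM on the free diet (-0.02 ± 0.14). Iars (-0.10 ± 0.18) and Vars (-0.36 ± 0.21) did not pass either, and the 95% intervals of all cytosolic differences lay between -0.84 and 0.59. Replicate 3 of the free-diet group listed 17554 genes above 0, against 24329 or more in its fellows, with 16.5% mitochondrial transcripts and 5724 TPM of mt-Rnr2. Without it, still 0 of 36 passed. Of all genes, centring changed the split from 748 higher and 1137 lower to 1380 and 1095, again with 0 of 36. Of the 7 fibroblast markers 5 fell, with sums of 807 to 1342 TPM against 2110 to 2853 TPM on normal diet. The leukocyte markers summed to 13991 to 19299 against 7789 to 11169 TPM, and of these only Lyz2 rose. Sftpc and the heart muscle markers Myh6 and Actn2 rose, and the mesothelial marker Msln fell. The part of these markers in the synthetase levels was not tested.

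With BT2, Gars and Rars fell and Vars2 rose, beside 11.8% of all genes changed, 6.34% upward and 5.41% downward. Gars read 143, 146 and 125 TPM with bleomycin and 86.4, 91.7 and 95.8 TPM with BT2 (-0.59 ± 0.13; limma adjusted p = 0.0228), and Rars 57.0, 60.3 and 51.2 against 34.7, 43.2 and 40.0 TPM (-0.51 ± 0.14; adjusted p = 0.0465). Vars2 read 7.00, 11.9 and 11.0 TPM with bleomycin and 21.8, 26.3 and 20.8 TPM with BT2 (1.15 ± 0.21; adjusted p = 0.0143), while the PBS lungs read 16.4 to 17.8 TPM. The groups of these 3 genes did not overlap. All 3 calls were lost without BT2 replicate 1 or 3 and in a fit of these groups alone, and that of Rars also without bleomycin replicate 1 or BT2 replicate 2, with a pseudocount of 0.1 (adjusted p = 0.0503), without the filter (adjusted p = 0.0648) and with the replicate block (adjusted p = 0.0618). Without bleomycin replicate 2, 4 cytosolic and 3 mitochondrial genes passed. Lars (-0.25 ± 0.14), Iars (-0.09 ± 0.23) and Vars (0.35 ± 0.20) did not pass. The fibroblast markers summed to 554 to 1443 TPM with BT2 against 1956 to 2475 TPM without, and the epithelial markers to 88102 to 163057 against 21980 to 31305 TPM. Of the 7 epithelial markers only Sftpc and Scgb1a1 rose, and none fell. The leukocyte markers summed to 19131 to 20750 against 11028 to 16108 TPM, but of the 7 only Cd3e rose, and Cd68 and Adgre1 fell. Lyz2 alone read 8315 to 20149 TPM across the libraries of this experiment. The heart muscle markers summed to 33.8 to 53.8 against 19.3 to 33.2 TPM, and of the 3 only Myh6 rose. The part of these in the results was not tested. Of the shortage response genes Trib3, Chac1 and Sesn2 rose with BT2 and none fell.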

How the data were processed

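Poly(A) RNA of 54 mouse samples was measured in 17 groups, read from the sample titles. The deposited values are TPM in 4 tables that the authors made, with samples as columns. The build mm39 and the tools HISAT2, Subread with featureCounts, DESeq2, Trim Galore and FastQC are named in the submitters' processing notes, and the annotation, versions and roles are not given in the sources used here. TPM are shares of a library, so depth is unknown and no counting interval is given. Because the values are TPM, no count test was run.

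The filter kept genes that reached a TPM of 1 in 3 or more libraries of their table, and a pseudocount of 1 was added before the log2. All groups of a table entered 1 fit of group means with a trended variance (limma 3.58.1 under R 4.3.3), so that 18 comparisons share their table's spread, and Benjamini-Hochberg adjusted p-values over all genes tested were read at 0.05, two-sided. The procedure was tested on simulated data. Levels summed over a list are sums of TPM.

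The members, companion lists, markers and tests were chosen with earlier results of these data known. Named genes are the largest passing changes of each compartment (up to 6 cytosolic, 4 mitochondrial), members that went against their compartment, and Lars, Iars, Vars and their mitochondrial counterparts; other members and companion genes were chosen after their values were seen, and some companion genes are not reported here. Alternatives were a pseudocount of 0.1, the filter removed or set to a TPM of 5, centring on the median, the replicate number as a block, a fit of the compared groups only, and each library left out in turn. Promoters are from RefSeq (GRCm38.p6), a build other than that of the files.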

Additional observations from a re-analysis of the deposited data

Results flagged for a closer look

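In the diet experiment, with 4 libraries per group, 8 of 108 groups of values held a library far from the other 3; chance flags about 1 in 20 groups. PBS replicate 4 was low for Ears2 (3.53 TPM), Farsb (33.6 TPM) and Gars (49.0 TPM), and bleomycin replicate 4 stood apart for Cars2 (10.9 TPM). On the BCAA-free diet, replicate 3 was apart for Cars2 (3.11 TPM), Dars (50.6 TPM) and Lars (37.5 TPM), and replicate 1 for Nars (107 TPM). Replicate 3 is the library with the fewest genes above 0.

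The response of cultured fibroblasts to TGF-β1 differed between BCAA-free and complete medium for 18 cytosolic and 9 mitochondrial synthetase genes, by the interaction term in limma. The differences of the responses, in log2, were 2.37 for Wars, 2.06 for Aars, 1.97 for Yars, 1.96 for Lars, 1.78 for Vars, 1.74 for Eprs and 1.43 for Iars. Among mitochondrial genes they were 1.68 for Tars2, 1.52 for Yars2, 1.42 for Ears2, 1.13 for Nars2, 0.81 for Iars2 and 0.57 for Vars2. The last lost its call after centring (adjusted p = 0.0529).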

How the results depend on the processing

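Of 452 counts of called synthetase genes under an alternative, 208 belong to comparisons with no call and stayed at 0. Of the other 244, 214 stayed within 1.5 times the reported count, whatever the direction, and 30 did not, 17 of these with a library left out. In the diet experiment centring turned the direction of both counts, from 9 cytosolic rises to 2 rises and 6 falls and from 4 mitochondrial rises and 1 fall to 6 falls. Of 2354 values of named genes, 2252 kept direction and side of the threshold, 82 lost the call, 18 gained it and 2 reversed. No reversal and no lost call was seen for the named cytosolic genes under BCAA removal with TGF-β1. Centring gave, for TGF-β1 in complete medium, 14 cytosolic and 1 mitochondrial calls instead of 9 and 7; for bleomycin in the BT2 experiment 4 mitochondrial instead of 2; and for BT2 5 and 2 instead of 2 and 1. In the diet experiment it turned Nars2 from 0.55 to -0.018 and Vars from 0.14 to -0.42, since all genes had shifted. A fit of the compared groups only, with fewer samples, gave 7 instead of 12 mitochondrial falls with BCKA, 1 instead of 2 mitochondrial calls for bleomycin in the BT2 experiment, and 0 and 0 for BT2. For BT2, cytosolic calls were 1 with a pseudocount of 0.1 and 1 without a filter, and a filter at a TPM of 5 left 2 of 5 mitochondrial calls in the diet experiment; the cause was not tested. The share of genes with the core in a promoter was 3.91% before the start alone. Leaving out single libraries gave 3 to 5 mitochondrial calls for TGF-β1 in complete medium, 3 to 6 for bleomycin in the diet experiment, 2 to 11 cytosolic and 1 to 5 mitochondrial in the BT2 experiment, and 0 to 4 and 0 to 3 for BT2. With the replicate number as a block, BT2 kept 1 cytosolic call and no other count moved beyond 1.5 times. After group means were removed, same-numbered fibroblast libraries had correlations of -0.486 to 0.535, with a median of 0.011. Different-numbered ones had -0.565 to 0.627, with a median of -0.003. The numbers thus gave no sign of pairing the cultures, though groups of 3 libraries cannot exclude it. Depth is unknown, and the number of libraries limits what small differences can be resolved.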
